A study of Mus musculus with 2 samples.

Results

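The mouse miRNAs miR-15 and miR-16 are made from 2 short tandem clusters, Mir15b with Mir16-2 in an intron of Smc4 and Mir15a with Mir16-1 in an intron of Dleu2. These 4 genes were taken by symbol from a table of 1973 miRNA genes, and their levels in mouse embryonic lung (strain B6NCrl, embryonic day 14.5, or E14.5) were compared between the 2 clusters. MicroRNA sequencing (miRNA-seq), which reads the smallest RNAs of a total RNA preparation, was available for 2 libraries of whole lung, labelled biological replicates 1 and 2. The labels name no treatment, transgene or other stage. They describe each library as the lung of a single pup but give its sex as pooled male and female, both carry the same numbers (pup 1, pregnant 2), and the collection day differs between the 2, so that an effect of the day cannot be told apart from the spread of replicates.

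The miR-15/16 miRNAs are guide strands that load into Argonaute and, through the seed at bases 2 to 8, repress mRNAs of the cell cycle and of cell survival, among them those of D-type and E-type cyclins and of Bcl2. The Dleu2 cluster is known from human chronic lymphocytic leukaemia, in which the matching region is often deleted, and loss of miR-15a and miR-16 has been described in human lung tumours. Dleu2 is a long non-coding RNA that hosts the cluster, whereas Smc4 encodes a core subunit of condensin, the complex that compacts chromosomes in dividing cells.

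The mature sequences are shown first because they decide which cluster a read can be assigned to. They are from RefSeq (GRCm38.p6), which held mature products for all 4 genes, and are written 5′ to 3′ with the seed in capitals. The 5p products are the guide strands named above.
miR-15b-5p (Mir15b): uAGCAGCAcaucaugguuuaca
miR-15a-5p (Mir15a): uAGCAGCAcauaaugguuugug
miR-16-5p (Mir16-2 and Mir16-1): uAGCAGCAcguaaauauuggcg
All of these are 22 nt long and have the same seed. Counted from 1 at the 5′ end and with the base of miR-15a-5p first, miR-15b-5p differs from miR-15a-5p by A12C, G20A, U21C and G22A, all of them outside the seed. The longest stretch that miR-15a-5p and miR-15b-5p have in common is 11 nt. The miR-16-5p sequence is the same in Mir16-2 and Mir16-1, over its whole length of 22 nt.

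The opposite arms of the hairpins give the 3p products, which are usually the less abundant strand. They differ between the clusters.
miR-15b-3p (Mir15b): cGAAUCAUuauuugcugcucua
miR-15a-3p (Mir15a): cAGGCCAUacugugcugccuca
miR-16-2-3p (Mir16-2): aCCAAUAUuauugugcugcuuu
miR-16-1-3p (Mir16-1): cCAGUAUUgacugugcugcuga
The 3p products of Mir16-2 and Mir16-1 differ at 10 of 22 positions, and those of Mir15b and Mir15a likewise at 10 of 22, the seeds included. The 4 seeds of the 3p products are all different.

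The hairpins of the miR-16 pair are shown with their longest common stretch in capitals, since a read that lies inside it matches both genes.
Mir16-2: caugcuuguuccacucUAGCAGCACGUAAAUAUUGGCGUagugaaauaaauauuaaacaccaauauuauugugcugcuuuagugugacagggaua
Mir16-1: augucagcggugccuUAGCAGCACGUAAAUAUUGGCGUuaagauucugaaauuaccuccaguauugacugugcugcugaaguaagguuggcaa
The common stretch is 23 nt, which is miR-16-5p and 1 further base. The deposited counts hold multimapping reads in an entry of their own, 32.9% of reads in replicate 1 and 33.1% in replicate 2, and assign them to no gene. The counts of Mir16-2 and Mir16-1 can therefore hold 3p reads and 5p reads that run past the common stretch or carry other bases, and they leave out reads of the exact miR-16-5p sequence. The files do not separate the arms, and how many reads were set aside for each gene was not measured. No such overlap of a whole mature product exists for Mir15b or Mir15a, whose mature products have at most 11 nt in common with a mature product of any other gene in the RefSeq table.

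In mm10 Mir15b (ENSMUSG00000065580.1) lies on chromosome 3 from 69009772 to 69009835, and Mir16-2 (ENSMUSG00000065606.1) from 69009902 to 69009996, both on the plus strand, as is Smc4 (69004738 to 69034623). In the GENCODE transcript Smc4-201 both lie in the intron after exon 5 of 24. Mir15a (ENSMUSG00000093007.1) lies on chromosome 14 from 61632027 to 61632110, and Mir16-1 (ENSMUSG00000092995.1) from 61631880 to 61631972, both on the minus strand, as is Dleu2 (61602839 to 61682373). In Dleu2-201 both lie in the intron after exon 4 of 7. No annotated host transcript that spans a hairpin has an exon there, in 5 spanning transcripts of Smc4 and 8 of Dleu2. Along the host strand miR-15 precedes miR-16 in both clusters, with 66 nt between the hairpins in Smc4 and 54 nt in Dleu2.

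**Figure D1:**
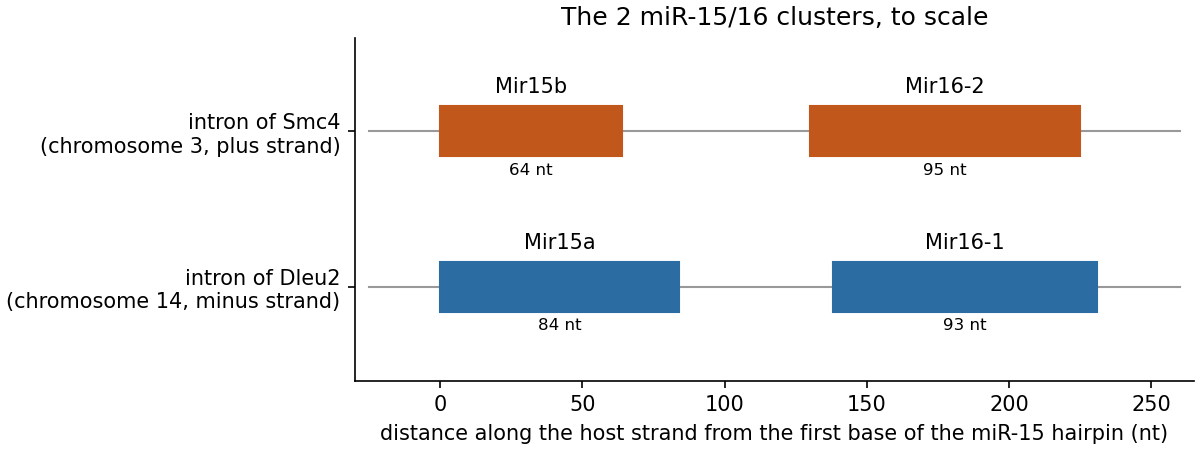
Map of the Smc4 cluster (top) and the Dleu2 cluster (bottom), with distance in nt along the host strand from the first base of the miR-15 hairpin. Filled boxes are the annotated hairpins with their lengths. The clusters span 225 nt and 231 nt.

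Replicate 1 held 10200412 reads and 5128214 counts on the strand of a miRNA gene, and replicate 2 held 4544184 reads and 2332032 such counts. Levels are counts per 1000000 of these gene-strand counts (CPM). In replicate 1 a single count is worth 0.195 CPM, and in replicate 2 it is worth 0.429 CPM. Intervals are 95% exact (Clopper-Pearson) binomial intervals and cover counting error only. All 4 genes of the clusters were among the 320 genes that reached 10 counts in each library, and none had a count on the opposite strand (0 in each library). The lung label was set against marker miRNAs. The 5 epithelial miR-200 genes summed to 33294 and 33730 CPM in replicates 1 and 2, and endothelial Mir126a stood at 76033 and 58438 CPM. Markers of blood cells and hepatocytes were low. The 2 erythroid genes summed to 497 and 392 CPM, and the 3 white blood cell genes to 691 and 662 CPM. Hepatocyte Mir122 stood at 22.4 and 39.5 CPM. Of 6 neural genes 2 were found by symbol, Mir9-2 and Mir9-3, which summed to 0.195 and 0.429 CPM. Both have a mature sequence that another gene also makes, and multimapping reads are assigned to no gene. Their counts therefore cannot show whether neural tissue was present. The 3 heart genes summed to 361 CPM in replicate 1, against 42.0 CPM in replicate 2. The part of heart tissue or blood cells in the results on the clusters was not tested.

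The Dleu2 cluster was counted at more than 2 times the level of the Smc4 cluster in both lungs. The Smc4 cluster held 20218 counts in replicate 1 and 9817 in replicate 2, against 45013 and 21347 for the Dleu2 cluster. In CPM these are 3942.5 and 4210 for Smc4 (4076 ± 189, SD, n = 2), and 8778 and 9154 for Dleu2 (8966 ± 266, n = 2). The clusters therefore did not overlap in level, and the gap between them was larger than the spread between the replicates of either. Reads that match both miR-16 copies are in neither sum. Since whole lung was sequenced, fewer cells with a cluster and less miRNA per cell cannot be told apart.

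The ratio of the clusters was nearly the same in both libraries. Of the counts of the 4 genes, the Smc4 cluster held 31.0% in replicate 1 (interval 30.6 to 31.4) and 31.5% in replicate 2 (31.0 to 32.0). The log2 ratio of Smc4 to Dleu2 was -1.15 and -1.12, a mean of -1.14 ± 0.02 (SD, n = 2), which places Dleu2 2.23-fold and 2.17-fold above Smc4. The ratio is taken within a library and needs no scaling between libraries. No p-value is given, because an exact sign test on 2 libraries cannot go below 0.5. The capture efficiency of each sequence is not known here.

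Both miRNAs of the pair leaned the same way, to different extents. For the miR-15 genes, whose guide strands are distinct, Mir15b had 15504 and 6990 counts in replicates 1 and 2, against 28471 and 12472 for Mir15a, a log2 ratio of Mir15b to Mir15a of -0.86 ± 0.03 (SD, n = 2). For the miR-16 genes, Mir16-2 had 4714 and 2827 counts, against 16542 and 8875 for Mir16-1, a log2 ratio of Mir16-2 to Mir16-1 of -1.73 ± 0.11. The miR-16 ratio lacks the reads that match both copies. The miR-15 ratio does not have that limit. The ratio of Mir15b to Mir15a is thus the comparison of the loci that rests on mature products unique within the RefSeq table. Matches elsewhere in the genome were not checked. By this ratio Dleu2 was 1.84-fold and 1.78-fold above Smc4 in replicates 1 and 2.

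Ordered by level, Mir15a came first, then Mir16-1, Mir15b and Mir16-2, in both libraries. The annotated mature products of the 4 genes are all 22 nt long, and no correction for length was made, although the length of the counted reads is not given. Mir15a stood at 5552 CPM in replicate 1 (interval 5488 to 5617) and 5348 in replicate 2 (5255 to 5443), a mean of 5449.98 ± 144 CPM (SD, n = 2) and place 42 of all genes. Mir16-1 stood at 3226 CPM (3177 to 3275) and 3806 CPM (3727 to 3886), a mean of 3516 ± 410 CPM and place 51. Mir15b stood at 3023 CPM (2976 to 3071) and 2997 CPM (2928 to 3068), a mean of 3010.3 ± 18.3 CPM and place 58. Mir16-2, the lowest, stood at 919 CPM (893 to 946) and 1212 CPM (1168 to 1258), a mean of 1066 ± 207 CPM and place 103.

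This is an order of counts, and since reads of the exact miR-16-5p sequence are missing, it does not rank the mature miRNAs. Against the spread between replicates the gaps were wide at the top and bottom, both of them a miR-15 gene over a miR-16 gene, and narrow in the middle. Mir15a exceeded Mir16-1 by 2326 CPM in replicate 1 and by 1542 CPM in replicate 2, and Mir15b exceeded Mir16-2 by 2104 and 1785 CPM, each gap several times the spread between replicates. Mir16-1 exceeded Mir15b by only 202 CPM in replicate 1, and by 808 CPM in replicate 2. The mean gap of that pair, 505 CPM, was little more than the SD of Mir16-1 (410 CPM), so those neighbours are hard to separate with 2 libraries.

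**Figure D2:**
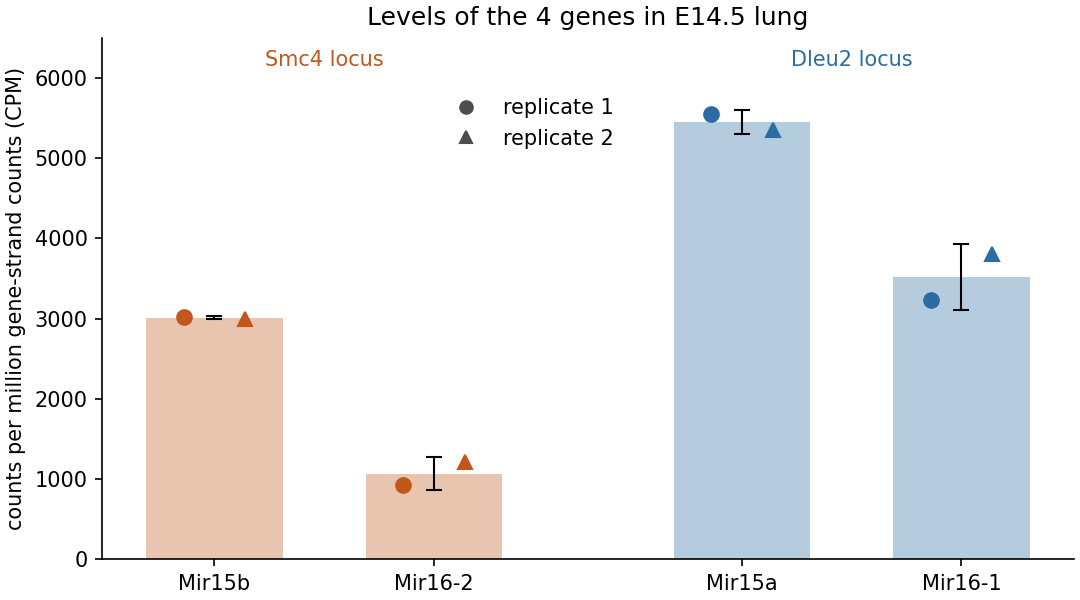
Level of each gene in CPM, with the Smc4 cluster on the left and the Dleu2 cluster on the right. Bars are means of the 2 libraries, error bars are the SD, circles are replicate 1 and triangles replicate 2. Mir15a is highest at 5552 and 5348 CPM, Mir16-2 lowest at 919 and 1212 CPM, and Mir16-1 and Mir15b lie close together.

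Within each cluster the miR-15 gene was counted more often than its miR-16 neighbour, and the excess was larger in Smc4. Counts of Mir15b were 3.29 times those of Mir16-2 in replicate 1, and 2.47 times in replicate 2. On the log2 scale these ratios are 1.72 and 1.31 (1.51 ± 0.29, SD, n = 2). Counts of Mir15a were 1.72 times those of Mir16-1 in replicate 1, and 1.41 times in replicate 2. On the log2 scale they are 0.78 and 0.49 (0.64 ± 0.21). In each library the Smc4 ratio was above the Dleu2 ratio, and the ranges of the 2 ratios over the libraries did not overlap. The larger excess in Smc4 comes from the same counts as the unequal miR-15 and miR-16 ratios between the clusters above. It restates that difference and is no separate result. Both ratios use miR-16 counts from which reads matching both copies are missing, so neither gives the ratio of mature miR-15 to miR-16.

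Both ratios were lower in replicate 2 by more than counting error. The miR-15 gene held 76.7% of the Smc4 cluster's counts in replicate 1 (interval 76.1 to 77.3) and 71.2% in replicate 2 (70.3 to 72.1). In the Dleu2 cluster it held 63.3% (62.8 to 63.7) and 58.4% (57.8 to 59.1). The intervals of the replicates do not overlap in either cluster, whereas those of the Smc4 share of all 4 genes do. The replicates thus differed in the balance of counts of miR-15 to miR-16 genes, while the Smc4 share of all 4 genes stayed at 31.0% and 31.5%. By the miR-16 genes alone the Smc4 share was 22.2% (21.6 to 22.7) in replicate 1 and 24.2% (23.4 to 24.9) in replicate 2. Those intervals do not overlap. By the miR-15 genes alone it was 35.3% (34.8 to 35.7) and 35.9% (35.2 to 36.6), with overlap.

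**Figure D3:**
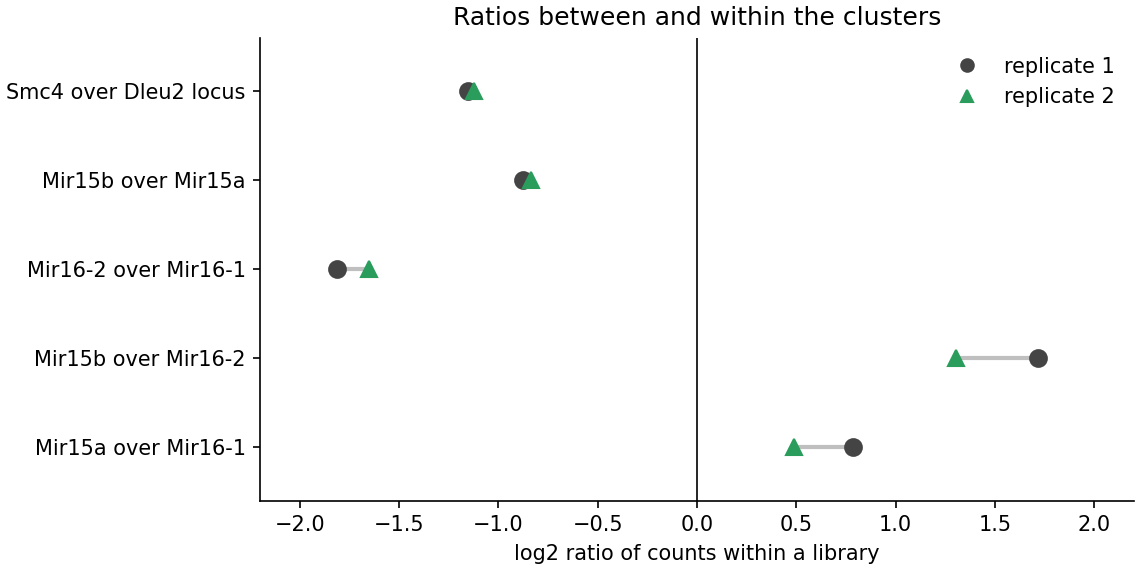
Log2 ratios of counts within each library, with circles for replicate 1 and triangles for replicate 2. The 3 ratios between the clusters lie left of 0 and the 2 ratios of miR-15 to miR-16 right of it. The cluster ratio differs little between libraries (-1.15 and -1.12), and the Mir15b to Mir16-2 ratio most (1.72 and 1.31).

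The difference between the replicates was then set against all genes. Log2 ratios of replicate 1 to replicate 2 were taken on CPM scaled by TMM, a scaling factor from the bulk of genes, with 1 CPM added. Mir15a was higher in replicate 1, at a log2 ratio of 0.14 (exact binomial test with Benjamini-Hochberg adjustment over all genes tested, adjusted p = 1.18e-19). Mir15b was also higher, at 0.10 (adjusted p = 3.84e-06, same exact test). Mir16-1 was lower in replicate 1, at -0.15 (adjusted p = 3.32e-14, same exact test), and Mir16-2 lower at -0.31 (adjusted p = 3.07e-18, same exact test). The call of Mir15b depended on the scaling: with library totals its log2 ratio was 0.01 and it did not pass (adjusted p = 0.719, same exact test).

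These calls are those of abundant genes in general. Of 404 genes tested 169 passed (41.8%), 97 higher in replicate 1 (24%) and 72 lower (17.8%), and among the 100 genes between 500 and 10000 CPM, the range that holds the 4 genes, 80 passed. Scaling by library totals gave 65 genes higher and 112 lower in replicate 1, whereas size factors from DESeq2 gave 107 higher and 61 lower. That all 4 passed is therefore no result about them. The test compares reads of 2 libraries, not a condition. When the spread between the libraries was added, through edgeR's exact test with a common dispersion of 0.033 estimated from the same libraries, none of the 4 (0) passed, at an adjusted p of 1 each. Under that rule 1 of 404 genes (0.248%) passed. The dispersion is set by the same differences that are then tested, so few genes can pass. Failing that test therefore says little about the 4 genes. In absolute size the ratio of Mir15b was at or above that of 24.3% of the genes tested, that of Mir15a at 33.7%, that of Mir16-1 at 35.9% and that of Mir16-2 at 61.6%. The median log2 ratio of the 4 genes was -0.02, beside 0.03 for all genes tested.

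**Figure D4:**
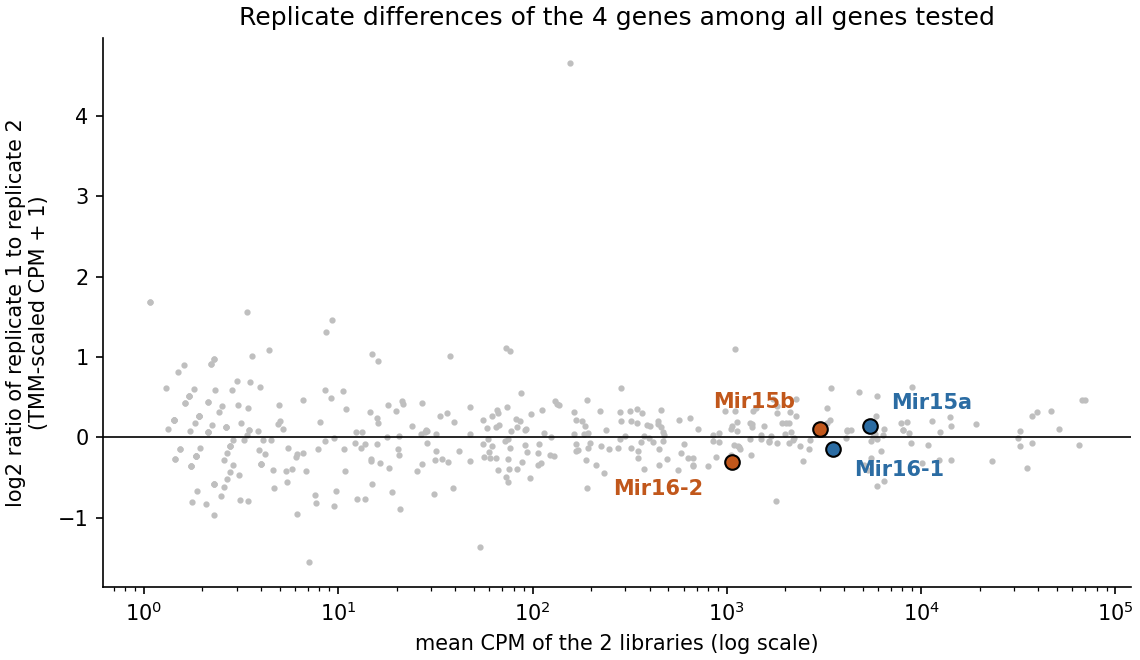
Log2 ratio of replicate 1 to replicate 2 (TMM-scaled CPM with 1 added) against mean CPM on a log axis, for 404 genes tested. Grey points are other genes, and the named points are the 4 genes of the clusters, which lie between -0.31 and 0.14 with both miR-15 genes above 0 and both miR-16 genes below.

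The seed of miR-15/16 is found in further miRNA genes, which set the scale for the clusters. The RefSeq table held 11 mouse genes with this seed, the 4 cluster genes and 7 others, and 10 of the 11 had an entry in the count tables. The 2 others with counts are shown with the seed in capitals, beside miR-503-5p, which is made next to Mir322 and whose seed differs in its last base.
miR-322-5p (Mir322): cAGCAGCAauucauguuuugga
miR-195a-5p (Mir195a): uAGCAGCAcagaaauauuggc
miR-503-5p (Mir503): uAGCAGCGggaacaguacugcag
Mir195b, Mir6342, Mir6353 and Mir6419 were listed at 0 counts in both libraries, which allows up to 0.585 CPM for replicate 1 and up to 1.29 CPM for replicate 2. Mir497, a neighbour of Mir195a on chromosome 11, was not analysed here as a gene of its own.

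The 4 cluster genes gave a minority of the counts assigned to genes with this seed. They held 19.5% of these counts in replicate 1 (interval 19.3 to 19.6) and 23.0% in replicate 2 (22.8 to 23.3). Most came from X-linked Mir322, the mouse counterpart of human miR-424, at 50682 and 42969 CPM. It held 77.5% and 74.1% of the counts and exceeded the 4 genes together by 3.98-fold and 3.22-fold. Mir195a, known for its rise in the heart after birth, stood at 1956 and 1689 CPM, between Mir15b and Mir16-2 in both libraries. Mir503, at 1976 and 1852 CPM, stood close to Mir195a. The places of the miR-16 genes within the family rest on counts without the reads that match both copies. The share of the 4 genes and the folds of Mir322 over them have the same limit, so that share can be too low. Mir497 has the seed but is not in the family total, so the share can also be too high. The arms are not separated and the 3p products have other seeds, so none of these are counts of the seed itself. The 3 other genes named with counts were higher in replicate 1, Mir322 at a log2 ratio of 0.33, Mir195a at 0.30 and Mir503 at 0.18. All 3 passed the exact binomial test that 41.8% of genes passed. Of the 100 genes between 500 and 10000 CPM, where Mir195a and Mir503 lie, 80 passed it. None of the 3 passed edgeR's exact test with a common dispersion.

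**Figure D5:**
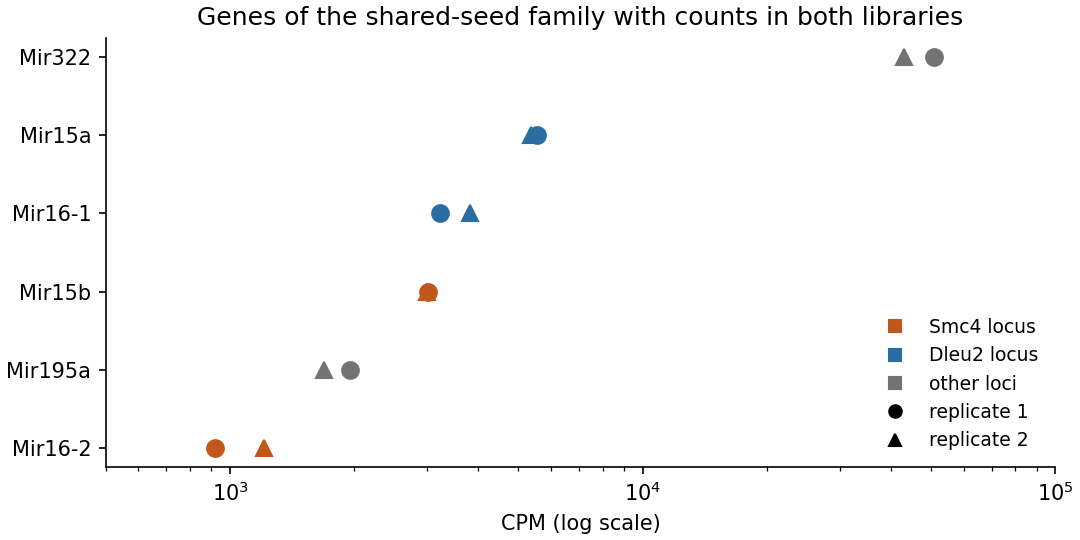
Level in CPM on a log axis of the 6 genes with the AGCAGCA seed that had counts, with circles for replicate 1 and triangles for replicate 2. Orange is the Smc4 cluster, blue the Dleu2 cluster and grey other loci. Mir322 lies at 50682 and 42969 CPM, above every gene of the clusters, and Mir195a between Mir15b and Mir16-2.

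The genes with the most similar levels were found by distance of log2(CPM + 1) over the 2 libraries. With 2 points per gene this describes level and little else. Nearest to Mir15b were Mir382 of the imprinted Dlk1-Dio3 region (2979.6 and 3039 CPM) and Mir183 (2880 and 2906 CPM). Nearest to Mir16-2 were Mir433, also of the Dlk1-Dio3 region, and Mir148a. Mir15a was closest to Mir296 and Mir181c, and Mir16-1 to Mir298 (3199 and 3828 CPM) and Mir324. No gene of the clusters was among the nearest pair of another.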

How the data were processed

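The authors deposited, for each of 2 libraries, whole-number counts per miRNA gene, without regard to strand, on the strand of the gene and on the opposite strand. The columns were identified from their values, since the first equals the sum of the other 2 for every gene. The build was mm10 and the annotation GENCODE M4, per the deposited readme. Which aligner, counter and trimming were used is not given in the sources used here. Per the labels, RNA under size 30 was used. Summary entries, which name no gene, were left out: unmapped, multimapping, no-feature and ambiguous reads were 12.7%, 32.9%, 4.10% and 0% of reads in replicate 1 and 11.7%, 33.1%, 3.93% and 0% in replicate 2. Of 1973 identifiers 1894 matched GENCODE M21 without version numbers, and 916 genes matched the RefSeq sequence table by symbol. That table held no hairpin for Mir15a. No column was left without a sample (0).

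CPM were computed over gene-strand counts. Ratios were taken within a library. Genes with at least 10 counts over both libraries were compared between libraries by an exact two-sided binomial test given TMM-scaled sizes, Benjamini-Hochberg adjusted with a threshold of 0.05. The procedure was tested on simulated data. With sizes estimated by TMM it called more unchanged genes than with the true sizes, so small differences can be calls of the scaling. The labels give both libraries the same pup and pregnant numbers but different collection days and number them as biological replicates, and on that ground they were taken as separate lungs. Alternatives were other denominators, strands, scalings, filters, pseudocounts, each replicate left out and edgeR's exact test. Genes named are the 4 members, genes of their seed family with Mir503, the 2 nearest genes to each in level, markers of cell types and, chosen after their values were seen, Mir208a and Mir497b. Members and lists were chosen with earlier results of these data known. Software was R 4.3.3, edgeR 4.0.16, DESeq2 1.42.0, Python 3.11.15 and scipy 1.17.1.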

Additional observations from a re-analysis of the deposited data

Results flagged for a closer look

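Counts on the strand opposite to a gene entered only the alternative without regard to strand. At Mir497b they reached 10309 in replicate 1 and 4297 in replicate 2 (2010.2 and 1843 CPM of gene-strand counts), above the 3 counts that a count of 0 allows, while the strand of Mir497b itself held 0 and 2. GENCODE M21 places Mir497, which carries the miR-15/16 seed, on that opposite strand. Whether these reads are miR-497 was not tested. At the 4 genes of the clusters the opposite strand held 0 counts in both libraries.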

How the results depend on the processing

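The Dleu2 cluster stayed above the Smc4 cluster under every alternative run, but none of them could reverse that direction. Both Smc4 genes were below their Dleu2 counterparts in each library, and the opposite strand held 0 counts. The alternatives show only how far the size of the ratio moves. The log2 ratio of Smc4 to Dleu2 was -0.86 with the miR-15 genes alone, -1.73 with the miR-16 genes alone and -1.29 with geometric means, and it ranged from -1.15 to -1.12 with a replicate left out. Leaving out a replicate gave 1.31 to 1.72 for Mir15b to Mir16-2, 0.49 to 0.78 for Mir15a to Mir16-1, and 1.27% to 1.34% for the share of the 4 genes. That share, 1.30% of counts, was 1.40% without the most abundant gene in the denominator, 0.754% with multimapping and other unassigned mapped reads in it, and 0.759% without Mir15a. The order of the 4 levels was the same in all 5 alternatives, but none of them could change it. Other denominators scale the 4 genes alike, their opposite strand held 0 counts, and each library alone has that order. Of the genes tested between replicates, 169 passed, against 163 to 177 with other scalings, filters, pseudocounts or strands, and 1, Mir208a, with edgeR's common dispersion. Calls were 57.4% higher in replicate 1 with TMM, 36.7% with library totals and 63.7% with DESeq2 size factors. Mir15b did not pass with library totals (log2 ratio 0.01, exact binomial adjusted p = 0.719). The other 3 genes passed under each scaling and kept their direction. No paired analysis was possible because there is 1 group. With 2 libraries, a spread is known only roughly.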

Other observations

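The RefSeq table gave 87 counted genes with a mature sequence that is also made by another gene, and the miR-16 genes were high among them, Mir16-1 second and Mir16-2 in place 6 by mean CPM. Of the 87 genes 42 (48.3%) had at least 10 counts in both libraries, with a median of 73.9 CPM, the miR-16 genes included. Of 829 genes that share no mature sequence 251 (30.3%) did, with a higher median of 321 CPM. Mir16-1 stood at 3516 CPM and Mir16-2 at 1066 CPM. A shared guide sequence was therefore not accompanied by counts near 0 at either miR-16 gene, although the arm and length of their reads are not given.

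The lean of both miR-16 genes towards replicate 2 was also seen in other genes of that kind. On CPM with 1 added, before TMM scaling, the log2 ratio of replicate 1 to replicate 2 was -0.24 for Mir16-1 and -0.40 for Mir16-2, and 0.05 for Mir15a and 0.01 for Mir15b. The other 40 such genes with at least 10 counts had a median of -0.25 (quartiles -0.45 and 0.01), and 30 of them were lower in replicate 1. Among 249 genes with no shared mature sequence in the table the median was -0.06 (quartiles -0.25 and 0.13), and 148 were lower in replicate 1. These are descriptions of 2 libraries. The genes compared share families and were not matched for abundance, and no test was made.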
